A study of Macaca mulatta with 6 samples.

Results

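The genes described are 10 genes of endoplasmic reticulum stress and of the integrated stress response, XBP1, HERPUD1, HSP90B1, PDIA4, EDEM1, MANF, ATF4, DDIT3, TRIB3 and ASNS. They were taken by gene symbol alone, as all 17 probe sets annotated with one of the 10 symbols, out of 52766 probe sets and 14132 named genes tested. The endoplasmic reticulum genes have 12 of these probe sets (6 genes) and the integrated stress genes 5 (4 genes). RNA came from luteal cells of rhesus macaques, dispersed from the corpus luteum 12 days after the surge of luteinizing hormone and cultured on fibronectin without serum. From plating on, cells received 1 µM T0901317, which activates liver X receptors, or 0.1% dimethyl sulfoxide (DMSO), the vehicle, for 24 h. There were 3 arrays per group, from biological replicates that the design text calls paired and that carry the same numbers in both groups. The animals' ages and whether a replicate is 1 animal are not given in the sources used here.

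Secreted and membrane proteins fold in the endoplasmic reticulum. When misfolded proteins build up there, the sensors IRE1, PERK and ATF6 start the unfolded protein response. IRE1 splices the mRNA of XBP1, ATF6 is cut to release a transcription factor, and both raise chaperones and degradation factors. PERK, like the other eIF2 alpha kinases, lowers general translation while ATF4 is translated more, and ATF4 raises DDIT3 (the protein CHOP), TRIB3 and ASNS. The corpus luteum secretes progesterone, and stress of the endoplasmic reticulum has been studied in its regression. Splicing of XBP1 mRNA and translation of ATF4 were not measured here; the values are mRNA levels.

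Levels are log2 values from RMA, the array method that subtracts background, normalizes between arrays and reduces the probes of each set to 1 value. Levels of different probe sets are not compared, since each has its own brightness. No probe set of the 10 genes had a mean under 4.63, the 95th percentile of the mean levels of 42 Bacillus control probe sets, used as a reference for dim signal. Array medians lay between 5.54 and 5.71, and the SD of the levels was 1.98 and 1.99 on the replicate 3 arrays and 2.09 to 2.17 on the other 4. Of the luteal markers, STAR, the cholesterol carrier of steroidogenesis, had replicate means of 10.56 to 11.47 and HSD3B2, which makes progesterone, of 5.90 to 7.23, all above the reference for dim signal. CYP11A1, LHCGR and SCARB1 were not analysed here. The agonist check genes rose: MYLIP, a ubiquitin ligase, by 2.39 ± 0.11, SREBF1 by 1.49 ± 0.14 and NR1H3, which encodes LXR alpha, by 1.24 ± 0.11 in log2 units (SE from limma over 3 pairs; limma adjusted p = 4.9e-06, 0.0015 and 0.0011). MYLIP averaged 10.24 with T0901317 and 7.85 with DMSO.

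None of the 10 stress genes passed the test for a T0901317 effect. At an adjusted p under 0.05 in limma's paired fit, 0 of 17 probe sets were called, against 0.0853% of all probe sets. At an unadjusted p under 0.05 there were also 0 of 17, against 3.72% of all. That second count was 4 of 17, against 7.83% of all, with a 3' minus 5' RNA quality covariate (HSP90B1 at -0.17, and single probe sets of PDIA4, EDEM1 and TRIB3), and 2 of 17, against 6.26%, without replicate 3 (HSP90B1 and TRIB3). All of these values were below 0, and limma's adjusted p was at least 0.504. The changes of the representative probe sets (for each gene the one of highest mean over the 6 arrays) ran from -0.11 for HSP90B1 to 0.06 for XBP1. Their median was -0.08, with 7 of 10 below 0, and the median of all named genes was -0.02, with 58.7% below 0. The 95% intervals of the 10 representatives together spanned -0.31 to 0.25, which is 0.807-fold to 1.19-fold. A missed threshold does not show equal levels. The intervals use limma's variance, with 2 residual degrees of freedom per probe set and 9.44 prior ones drawn from all probe sets. They are therefore not limits set by the 3 pairs alone. Over all 17 probe sets the intervals spanned -0.49 to 0.42, the lower end from the dimmer probe set of TRIB3 and the upper end from the dimmest of PDIA4.

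In contrast to the treatment, the replicates differed strongly for most of these genes. Mean levels of DDIT3, HERPUD1, PDIA4 and MANF were 2.27-fold to 6.65-fold higher in replicate 3 than in replicate 1, and both replicate 3 arrays were above the other 4. Limma's moderated F test for a difference between the 3 replicate numbers called 14 of 17 probe sets and 8 of 10 representatives (adjusted p under 0.05), against 40.2% of all probe sets and 46.2% of all named genes. The exceptions among the representatives were XBP1 and HSP90B1. With probe sets under the reference for dim signal left out, the share of all rose to 49.5%. The median SE of the treatment change was 0.079 for the 10 representatives and 0.116 for all named genes. The shares of all are thus not matched for brightness or precision, and the part of these in the counts was not tested. Both arrays of replicate 3 lay above the other 4 for 11 of 17 probe sets and 8 of 10 representatives, against 35.0% of all probe sets and 27.4% of all named genes. Both lay below the other 4 for 3 of 17, against 20.2% of all. Replicate 2 was highest in this sense for 3 of 17 (13.6% of all) and replicate 1 for 0 of 17 (10.8% of all). Without replicate 3, the test between the other 2 replicates called 9 of 17, against 17.1% of all probe sets. The test compares 3 preparations with 2 arrays each, so it speaks of these only, and in bulk RNA fewer cells of a type cannot be told apart from less RNA per cell.

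**Figure D1:**
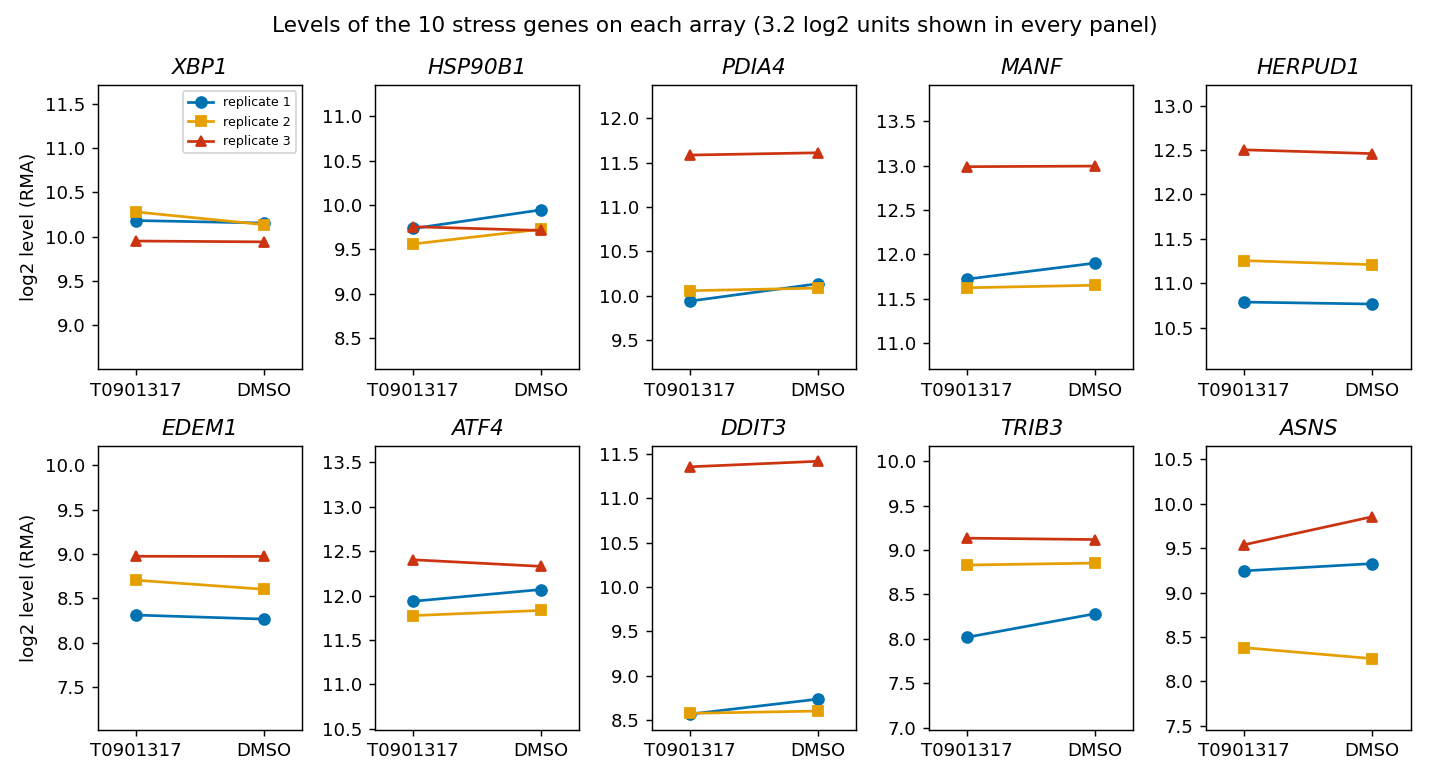
Log2 levels (vertical axis) of the representative probe set of each gene on the 6 arrays, T0901317 at left and DMSO at right of each panel, with a line joining the 2 arrays of a replicate and the same span of log2 units in every panel. The lines are nearly flat, and for PDIA4, MANF, HERPUD1 and DDIT3 the replicate 3 line lies more than 1 unit above the other 2.

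The transcription factor XBP1, whose spliced form drives chaperone and secretory genes, did not share the replicate pattern. Its brighter probe set, MmuSTS.1841.1.S1_at, had 10.18, 10.28 and 9.95 in replicates 1, 2 and 3 with T0901317, against 10.15, 10.14 and 9.94 with DMSO; the levels of the other 9 genes in each group are given in the same order. The replicate 3 arrays were the lowest of each group, by 0.22 against replicate 1 and 0.26 against replicate 2, and the test between replicates did not call it (limma adjusted p = 0.079). The change with T0901317 was 0.06 ± 0.08 (95% interval -0.11 to 0.23), with 3 of 3 pairs above 0. The dimmer probe set had 6.90, 7.42 and 6.74 with T0901317, against 7.13, 7.37 and 6.49 with DMSO. There replicate 2 was highest and replicate 3 lowest (adjusted p = 0.0047). The replicate 3 minus replicate 1 difference of the brighter probe set was -0.02 after quantile normalization and 0.04 after cyclic loess, so its direction depends on the scaling. After median centring the test did call it (adjusted p = 0.021).

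HSP90B1 encodes GRP94, the HSP90 chaperone of the endoplasmic reticulum. Its brighter probe set, MmugDNA.37434.1.S1_at, had 9.73, 9.56 and 9.75 with T0901317 and 9.94, 9.73 and 9.71 with DMSO. The groups overlap and no replicate stands apart (limma adjusted p = 0.30 between replicates). The change was -0.11 ± 0.08 (95% interval -0.30 to 0.07), below 0 in 2 of 3 pairs. The sign of its replicate 3 minus replicate 1 difference turned with the scaling, from -0.11 in the deposited values to 0.11 after quantile normalization, and the replicate test called it after that step (adjusted p = 0.041) and after cyclic loess (adjusted p = 0.042). Its second probe set was near the reference for dim signal, at 4.63 to 5.18 (mean 4.86), and had a change of -0.13 ± 0.13.

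PDIA4, a protein disulfide isomerase that forms and rearranges disulfide bonds in folding proteins, was high in replicate 3 on 3 of its 4 probe sets. The representative, MmugDNA.9838.1.S1_x_at, had 9.94, 10.06 and 11.59 with T0901317, against 10.14, 10.09 and 11.61 with DMSO. Replicate 3 exceeded replicate 1 by 1.56 ± 0.09 (2.95-fold) and replicate 2 by 1.53 ± 0.09, while replicates 2 and 1 differed by 0.03 (limma adjusted p = 3.9e-07 between replicates). The change with T0901317 was -0.08 ± 0.07 (95% interval -0.25 to 0.08). The other 2 bright probe sets had replicate 3 minus replicate 1 differences of 1.49 and 1.36. The dimmest, with replicate means of 7.44, 8.04 and 7.20 in replicates 3, 2 and 1, was highest in replicate 2. Its pair differences were -0.25, 0.01 and 0.57, the widest spread among the 17 probe sets. The representative has the suffix x, for probes that may match other transcripts, and shares its number with another bright probe set, so the 2 may not be independent readings.

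MANF is a secreted protein of the endoplasmic reticulum that is released under stress. Levels were 11.72, 11.62 and 12.99 with T0901317 and 11.90, 11.65 and 13.00 with DMSO. Its probe set, MmugDNA.35877.1.S1_s_at, has the suffix s, for probes shared by several transcripts. Replicate 3 stood above replicate 1 by 1.18 ± 0.08 (2.27-fold) and above replicate 2 by 1.35 ± 0.08 (adjusted p = 4.3e-07 between replicates). All 3 pairs lay below 0 for treatment, with a change of -0.07 ± 0.06 (95% interval -0.21 to 0.06).

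The degradation factors HERPUD1 and EDEM1 serve the removal of misfolded proteins: HERPUD1 helps to assemble the degradation complex in the membrane, and EDEM1 delivers misfolded glycoproteins to it. HERPUD1, on MmugDNA.34135.1.S1_at, had 10.79, 11.25 and 12.50 with T0901317 and 10.77, 11.21 and 12.46 with DMSO. All 3 replicates were apart, with differences of 1.71 ± 0.08 (3.26-fold) for replicate 3 minus 1, 1.25 ± 0.08 for 3 minus 2 and 0.46 ± 0.08 for 2 minus 1 (limma adjusted p = 1.4e-07). Its change with T0901317 was 0.04 ± 0.06 (95% interval -0.10 to 0.17), with pair differences of 0.02, 0.05 and 0.04. The SD of these 3 differences was 0.01. EDEM1 had 8.31, 8.71 and 8.97 with T0901317 and 8.27, 8.60 and 8.97 with DMSO on its brighter probe set, MmuSTS.657.1.S1_at. Replicate 3 lay 0.68 ± 0.11 above replicate 1 there (adjusted p = 0.0016), but 0.61 ± 0.13 below it on the dimmer probe set (adjusted p = 0.0049). These probe sets of 1 gene thus disagree in direction, and EDEM1 has no settled order of replicates. Its treatment changes were 0.05 ± 0.09 and -0.17 ± 0.11.

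ATF4 is the transcription factor at the centre of the integrated stress response. Among the representatives of these 4 genes it had the smallest replicate 3 minus replicate 1 difference in the deposited values. With the 3' minus 5' covariate that of ASNS was smaller, at 0.14 against 0.55 for ATF4. On MmuSTS.512.1.S1_at ATF4 had 11.94, 11.78 and 12.40 with T0901317 and 12.07, 11.83 and 12.33 with DMSO. Replicate 3 was highest in both groups, by 0.36 ± 0.08 against replicate 1 (1.29-fold) and by 0.56 ± 0.08 against replicate 2 (limma adjusted p = 5.3e-04). The change with T0901317 was -0.04 ± 0.06 (95% interval -0.18 to 0.10), below 0 in 2 of 3 pairs.

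DDIT3 encodes CHOP, a transcription factor of late, unresolved stress that is linked to cell death. It had 8.57, 8.58 and 11.35 with T0901317, against 8.74, 8.60 and 11.42 with DMSO. The 2 replicate 3 arrays were far above the other 4, which lay between 8.57 and 8.74. The difference was 2.73 ± 0.10 against replicate 1 (6.65-fold) and 2.80 ± 0.10 against replicate 2 (6.95-fold; adjusted p = 1.6e-08 between replicates). In size these differences exceeded those of 99.9% of all probe sets for either comparison. The change with T0901317 was -0.09 ± 0.08 (95% interval -0.27 to 0.09), with 3 of 3 pairs below 0. A single probe set, MmugDNA.32495.1.S1_at, reads DDIT3, so no second reading is at hand.

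TRIB3, a pseudokinase that feeds back on ATF4 and CHOP, differed mainly by its low level in replicate 1. The brighter probe set, MmugDNA.35207.1.S1_at, had 8.02, 8.83 and 9.13 with T0901317 and 8.28, 8.85 and 9.12 with DMSO. Replicate 3 lay 0.98 ± 0.12 above replicate 1 (1.97-fold) and 0.28 ± 0.12 above replicate 2 (limma adjusted p = 1.7e-04 between replicates). On the dimmer probe set both replicate 2 arrays were instead the highest (adjusted p = 0.047 between replicates). There the difference was -0.14 for replicate 3 minus 2 and 0.34 for replicate 3 minus 1. Replicate 1 was thus lowest on both probe sets, while the order of replicates 2 and 3 is not settled. The changes with T0901317 were -0.09 ± 0.10 and, on the dimmer probe set, -0.23 ± 0.12. The second of these had the smallest unadjusted p of the 17 (0.086; adjusted p = 1.00), with all 3 pairs below 0 and -0.47 in pair 1.

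ASNS, which makes asparagine and is a standard target of ATF4, set replicate 2 apart. On MmuSTS.109.1.S1_at it had 9.24, 8.38 and 9.54 with T0901317 and 9.33, 8.26 and 9.85 with DMSO. Replicate 2 was lower than replicate 1 by 0.97 on the log2 scale, and replicate 3 was higher than replicate 2 by 1.38 ± 0.12 (adjusted p = 1.7e-05 between replicates). Its order of replicates thus differs from that of TRIB3, which was lowest in replicate 1. The change with T0901317 was -0.09 ± 0.10, with pair differences of -0.08, 0.12 and -0.32.

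**Figure D2:**
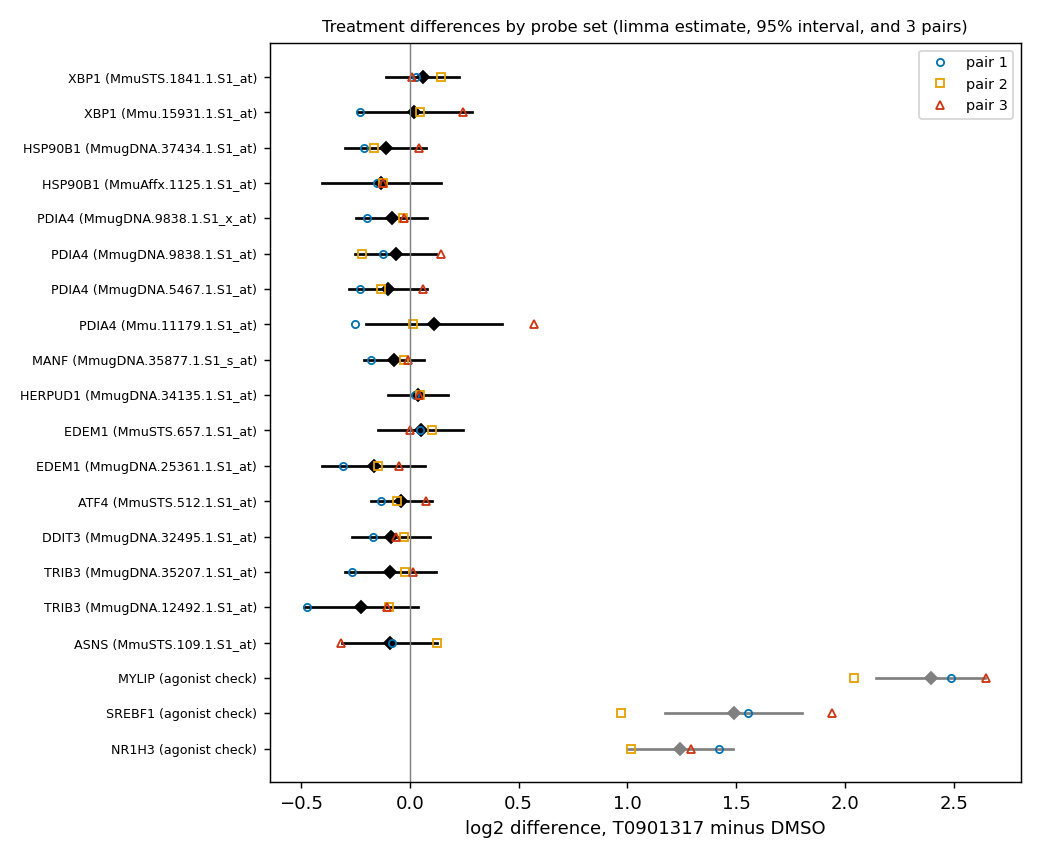
Log2 differences, T0901317 minus DMSO (horizontal axis), for the 17 probe sets of the 10 genes and for 3 check genes (vertical axis). Diamonds with bars are limma's estimate and 95% interval, and open symbols the 3 pairs. All 17 intervals cross 0, while MYLIP, SREBF1 and NR1H3 lie between 1.24 and 2.39.

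**Figure D3:**
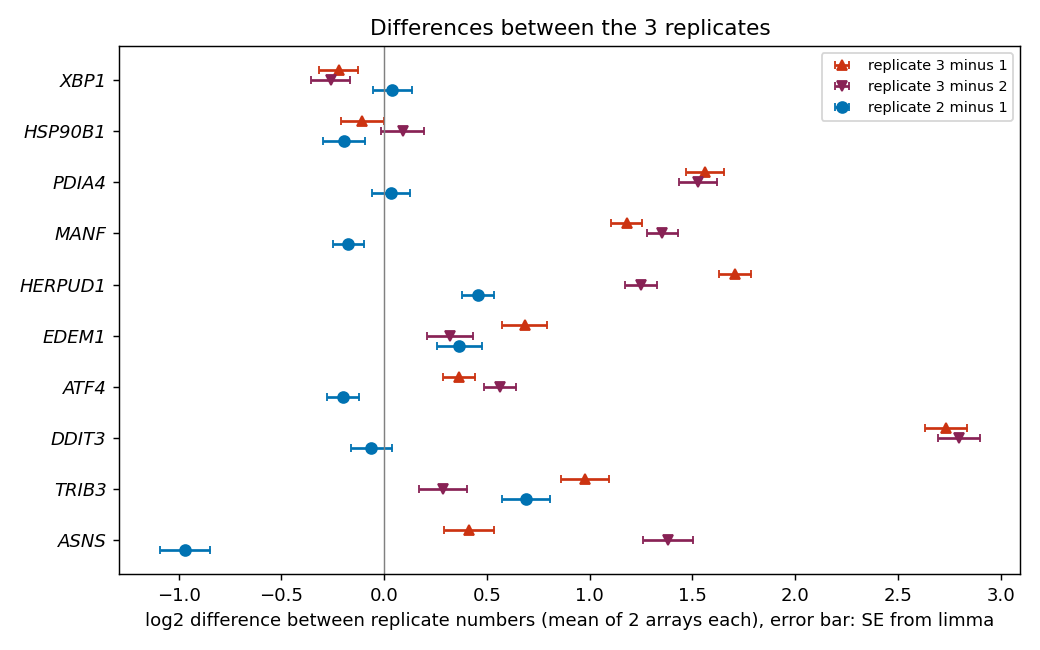
Log2 differences between replicate numbers (horizontal axis, each the mean of 2 arrays, with limma's SE) for the representative probe sets of the 10 genes. DDIT3 has 2.73 and 2.80 for replicate 3 minus 1 and 3 minus 2, while its value for 2 minus 1 is -0.06; ASNS has -0.97 for 2 minus 1.

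The other genes of these pathways were read from 8 lists, with 72 distinct measured genes besides the 10. None passed for T0901317 in limma's fit (0 rose, 0 fell), and 1 had an unadjusted p under 0.05 (6 with the 3' minus 5' covariate and 4 without replicate 3). That gene was GDF15, a stress-induced cytokine, with -0.17 ± 0.07 and 3 of 3 pairs below 0 (limma adjusted p = 1.00). The median change over the 72 was -0.04, against -0.02 for all named genes. Between replicates 52 of 72 were called, or 72.2%, against 46.2% of all named genes, which were not matched to them for brightness. For 32 of 72, or 44.4%, both replicate 3 arrays were the highest, against 27.4% of all named genes. The counts of each list below stand against these shares, and against the 28.9% of named genes lowest on both replicate 3 arrays and the 18.3% highest on both replicate 2 arrays; with 4 to 15 genes a list, they are descriptions. Levels of list genes are means over the 2 arrays of a replicate, given for replicates 3, 2 and 1 in that order.

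Chaperones and folding enzymes were mostly highest in replicate 3. Of 13 measured, 0 passed for T0901317, 10 were called between replicates (76.9%), and 8 had both replicate 3 arrays on top. SDF2L1, a cofactor of chaperones in the endoplasmic reticulum, had means of 10.45 in replicate 3, 8.70 in replicate 2 and 8.38 in replicate 1 (limma adjusted p = 2.1e-07). DNAJB11, a cochaperone of the HSP70 of this compartment, had 11.61, 10.43 and 10.30, and the disulfide isomerase PDIA6 had 12.75, 11.85 and 11.74, again for replicates 3, 2 and 1. ERO1A, which supplies disulfide bonds, was instead highest in replicate 2, with 8.45 in replicate 3, 10.16 in replicate 2 and 8.60 in replicate 1. The largest treatment values in the list were FKBP14 (-0.16 ± 0.09) and ERO1B (-0.12 ± 0.12), neither past the threshold. HSPA5, CALR, DNAJB9, HYOU1 and CRELD2 were not analysed here.

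Genes of degradation and of translocation into the compartment showed a like order. Of 15 measured, 11 were called between replicates (73.3%) and 9 were highest on both replicate 3 arrays. SSR3, a subunit of the translocon-associated complex, had 11.51 in replicate 3, 10.64 in replicate 2 and 10.51 in replicate 1, and SYVN1, the ubiquitin ligase of this pathway, 9.39, 8.69 and 8.51. With T0901317, 0 of 15 passed. SYVN1 (-0.14 ± 0.09) and DERL1, a membrane channel of the pathway (-0.11 ± 0.08), had the largest values.

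Of the 8 sensors, related factors and processing proteases measured, 4 were called between replicates, a share near that of all named genes (46.2%). Both replicate 3 arrays were highest for 3 (ERN1, EIF2AK3 and ATF6) and lowest for 5. EIF2AK3, which encodes PERK, had 8.35 in replicate 3, 7.94 in replicate 2 and 7.91 in replicate 1 (limma adjusted p = 0.045), while ERN1, which encodes IRE1 alpha, and ATF6 did not pass (adjusted p = 0.78 and 0.13). CREB3L1, a related membrane-bound factor, was lowest in replicate 3, with 7.77 against 8.25 in replicate 2 and 8.17 in replicate 1, and CREB3 had 8.43 against 8.89 and 8.77. With T0901317, 0 of 8 passed, and ATF6 (-0.12 ± 0.11) and MBTPS2, a protease that cuts ATF6 (-0.11 ± 0.10), had the largest values.

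The eIF2 list, with 5 measured, had 4 called between replicates (80.0%), with 3 lowest and 2 highest on both replicate 3 arrays. The 2 highest were EIF2AK3, also counted above among the sensors, and EIF2B5, which was not called. EIF2B1, a subunit of the exchange factor that eIF2 phosphorylation blocks, had 9.19 in replicate 3, 9.42 in replicate 2 and 9.90 in replicate 1, and EIF2B3, another subunit, 8.32, 8.85 and 9.01. EIF2S1, eIF2 alpha itself, had the largest treatment value of the 5 (-0.12 ± 0.07), and 0 of 5 passed. The kinases EIF2AK1, EIF2AK2 and EIF2AK4 and the phosphatase subunits PPP1R15A and PPP1R15B were not analysed here.

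Targets and partners of ATF4 were split in their order of replicates. Of 12 stress targets and partners, 8 were called between replicates (66.7%), with 4 highest on both replicate 3 arrays and 6 on both replicate 2 arrays. ATF3, a stress transcription factor, had 9.31 in replicate 3, 8.44 in replicate 2 and 8.68 in replicate 1. DDIT4, an inhibitor of mTORC1, was lowest in replicate 3, with 8.74 against 10.52 and 9.85, and GDF15 had 11.86, 12.41 and 11.11 in replicates 3, 2 and 1. With T0901317, 0 of 12 passed; after GDF15, ATF3 had the largest value (-0.16 ± 0.09).

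Of 10 genes of amino acid synthesis and transport, 8 were called between replicates (80.0%), with 2 highest on both replicate 3 arrays and 4 lowest. The cystine transporter SLC7A11 had 11.50 in replicate 3, 10.74 in replicate 2 and 10.40 in replicate 1. PHGDH, the first enzyme of serine synthesis, was lowest in replicate 2 like ASNS, with 8.96, 8.28 and 9.21. With T0901317, 0 of 10 passed, and SLC1A4, a neutral amino acid transporter (-0.13 ± 0.10), and GPT2, an alanine transaminase (-0.12 ± 0.12), had the largest values.

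Of 6 aminoacyl-tRNA synthetases, 4 were called between replicates (66.7%) and 1 was highest on both replicate 3 arrays. WARS1 had 9.83 in replicate 3, 10.70 in replicate 2 and 9.50 in replicate 1, and GARS1 7.35, 8.41 and 8.48. GARS1 (0.24 ± 0.19) and LARS1 (-0.13 ± 0.07) had the largest treatment values, and 0 of 6 passed.

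The 4 oxidative and heat shock genes measured, of 10 listed, were all called between replicates and all highest on both replicate 3 arrays. HMOX1, NQO1, TXNRD1, HSPA1A, HSPA1B and HSPB1 were not analysed here. DNAJB1, a cytosolic HSP40, had 12.17 in replicate 3, 10.36 in replicate 2 and 10.23 in replicate 1 (limma adjusted p = 7.6e-08). HSPH1, a cytosolic HSP110, had 12.67, 11.17 and 11.39 (adjusted p = 2.4e-07). Neither belongs to the endoplasmic reticulum. With T0901317 their values were -0.03 ± 0.07 and -0.04 ± 0.06, and that of GCLM, of glutathione synthesis, was -0.06 ± 0.07.

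**Figure D4:**
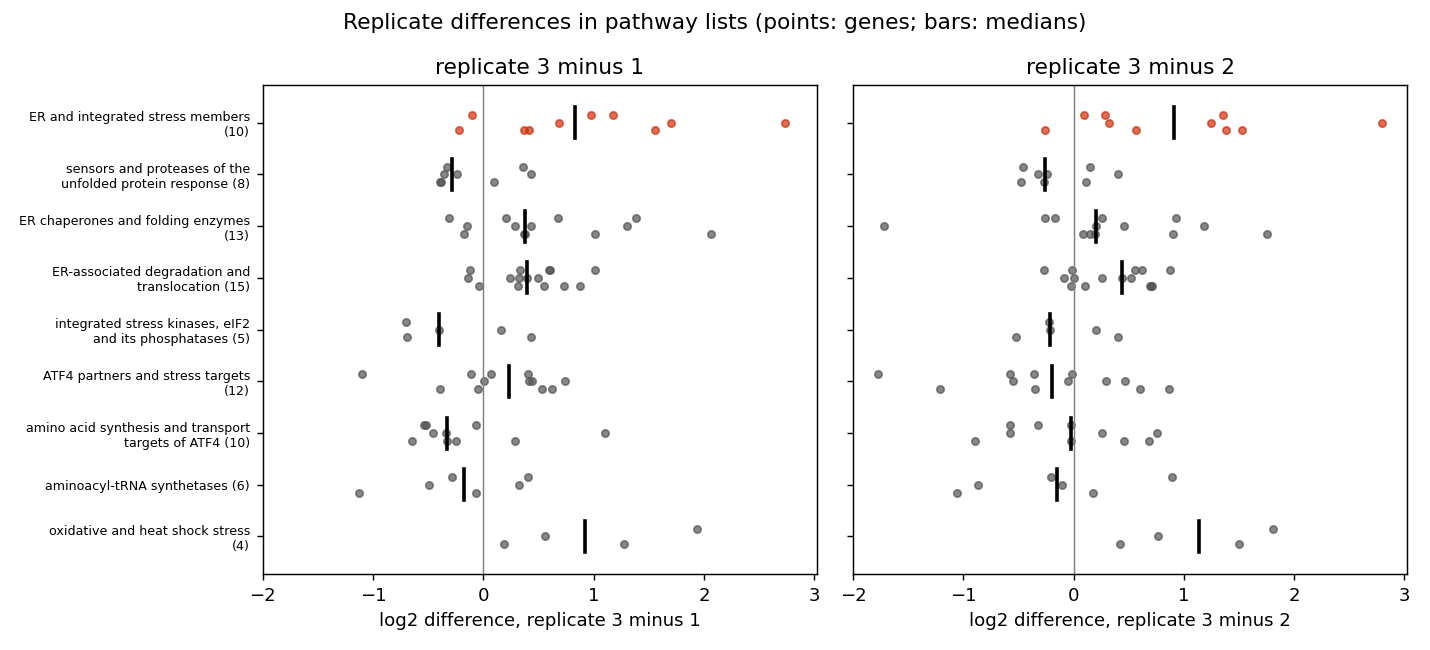
Log2 differences of replicate 3 minus 1 (left) and 3 minus 2 (right, both horizontal axes) for the 10 genes (red) and the measured members of the 8 pathway lists (grey, number in brackets). Black bars are medians, at 0.83 and 0.91 for the 10 genes, -0.28 and -0.26 for the sensors, and 0.92 and 1.13 for oxidative and heat shock genes.

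RNA quality, scaling and cell markers differed between the same replicates. For the actin control, the signal near the 3' end minus that near the 5' end, which grows with RNA degradation, was 2.45 with T0901317 and 3.50 with DMSO in replicate 3, and 1.54 to 2.03 on the other 4 arrays. Between these replicate 3 arrays, T0901317 minus DMSO ran from -0.06 for DDIT3 to 0.07 for ATF4 on 9 of the 10 representatives and was -0.32 for ASNS. On the dimmest probe set of PDIA4 it was 0.57. With this measure, averaged over 3 controls, as a covariate (chosen after seeing the data), replicate 3 minus replicate 1 was 2.81 for DDIT3, 1.72 for HERPUD1, 1.69 for PDIA4 and 1.32 for MANF. These 4 differences stayed positive under quantile normalization, cyclic loess and median centring, at 2.60 to 3.00 for DDIT3 and 1.05 to 1.37 for MANF. The median replicate 3 minus replicate 1 difference of all probe sets was 0.12, and 0.04 after quantile normalization. EDEM1, ATF4, TRIB3 and ASNS also kept the sign of this difference on their representatives under these settings, and XBP1 and HSP90B1 did not.

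Of 9 macrophage markers measured, all were called between replicates, and 8 were lowest on both replicate 1 arrays. The exception was MRC1, lowest in replicate 3 with 9.28, against 9.85 in replicate 2 and 9.80 in replicate 1. The share of all named genes lowest on both replicate 1 arrays was not counted here, so 8 of 9 is a description only. In the list, 5 of 9 were highest on both replicate 3 arrays, and their mean level was 9.02 to 9.04 in replicate 3, 8.88 to 8.91 in replicate 2 and 7.75 to 7.83 in replicate 1. Markers of T and NK cells, of which 2 of 3 were highest on the replicate 3 arrays, had mean levels of 7.90 to 8.07 there, 7.04 to 7.26 in replicate 2 and 7.02 to 7.21 in replicate 1; CD7 was dim and the CD3 genes were not analysed here. Neutrophil and blood markers were highest in replicate 3 for 4 of 7, at 6.21 to 6.48 against 6.02 to 6.17 in replicate 2 and 5.53 to 5.84 in replicate 1, and PPBP was dim. Fibroblast markers were lowest in replicate 3 for 5 of 6, at 8.48 to 8.57 against 9.70 to 9.82 in replicate 2 and 9.13 to 9.27 in replicate 1. Those of pericytes and smooth muscle were lowest there for 3 of 5, at 7.48 to 7.82 against 8.14 to 8.17 in replicate 2 and 8.32 to 8.58 in replicate 1. Endothelial markers were highest in replicate 2 for 7 of 9 and had mean levels of 6.45 to 6.69 in replicate 3, 6.95 to 7.10 in replicate 2 and 6.54 to 6.69 in replicate 1, and KDR was dim. Plasma cells, which carry a large endoplasmic reticulum, had marker means of 6.86 to 6.89 in replicate 3, 6.83 to 6.88 in replicate 2 and 6.82 to 6.87 in replicate 1. Of the 6, 3 were highest on both replicate 3 arrays: MZB1, the defining marker TNFRSF17, which was dim, and DERL3, also counted above among the degradation genes. SDC1 was lowest in replicate 3, with 8.21 against 9.06 in replicate 2 and 9.39 in replicate 1, and JCHAIN was highest in replicate 2. Luteal markers had 8.35 to 8.46 in replicate 3, 8.63 to 8.68 in replicate 2 and 8.67 to 8.87 in replicate 1. Only 2 of 5, STAR and HSD3B2, were lowest on both replicate 3 arrays. FDX1 was lowest in replicate 1 and INHA in replicate 2, and NR5A1 was not called between replicates (limma adjusted p = 0.64). The part of these cell types in the replicate differences of the 10 genes was not tested.

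Of the 10 genes, 6 spanned at least 1 log2 unit over the arrays, and for these the named genes of most similar profile were sought. Likeness was the root mean square difference between profiles over 6 arrays, each centred on its mean, among 14131 other genes; it is a description of 3 pairs. For MANF the 3 nearest were CLSPN, a protein of the replication checkpoint (0.079), the heat shock gene HSPH1 (0.081) and the receptor gene P2RY10 (0.083). For PDIA4 they were TOX (0.085), CLSPN (0.088) and CST7 (0.089), and for HERPUD1 SH3YL1 (0.093), ABCB1 (0.099) and NANS (0.099). The nearest to DDIT3 was LOC720054, a gene with only a provisional symbol (0.080), before MYH4 (0.23) and PCDH18 (0.25). On the arrays of replicates 1 and 2, SH3YL1 (3.52 to 4.24) and MYH4 (4.51 to 4.59) were under the reference for dim signal. TRIB3 was nearest to HLX (0.044), CD37 (0.072) and SEMA4D (0.074), and ASNS to SGK1 (0.065), SUGCT (0.10) and IFI27 (0.11). Among the 3 nearest genes listed for each, DDIT3, TRIB3 and ASNS had none in common, while MANF and PDIA4 shared CLSPN. The profiles were centred but not scaled, so a different span over the arrays is enough to keep such lists apart. Whether DDIT3, TRIB3 and ASNS vary alike was not tested by these lists.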

How the data were processed

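The deposited values are log2 levels, 52865 probe sets on 6 arrays, made with RMA per the submitters' processing notes; its version, array dates and scanner files are not given in the sources used here. Control probe sets (99) were left out. Names came from the supplied platform annotation and gene numbers were checked in the RefSeq gene table for rhesus macaque, which held those of 24616 probe sets and changed 0 symbols; the array's build is not stated, so no coordinates are given. Limma 3.58.1 in R 4.3.3 fitted treatment with the replicate number as a block and a variance trend. P-values are two-sided, adjusted by Benjamini-Hochberg over 52766 probe sets. The moderated F test over the replicate terms of that fit compared replicates. An exact sign-flip test of 3 pairs cannot go below p = 0.25. Same-numbered arrays correlated at 0.658, 0.813 and 0.830 in deviations from group means, and the pairing comes from the design text. The fit was also run on simulated data, with known changes added to independent noise. Replicate differences there were confined to few probe sets, unlike in the deposited values, so nothing is concluded from that run about these data.

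The members, lists and naming rule (largest changes and replicate ranges per list) were chosen with earlier results of these data known; DNAJB11, PDIA6 and EIF2AK3 were named after their values were seen. The labels call the replicates biological but do not say that they are separate animals, so p-values speak of these samples only. In the main fit, the p-values for treatment and between replicates are set against the spread left within pairs, moderated by limma's prior variance. The number of arrays limits the precision.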

Additional observations from a re-analysis of the deposited data

How the results depend on the processing

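The 0 of 17 calls for T0901317 among the probe sets of the 10 genes held in all 10 alternatives, and the 0 of 72 in the pathway lists did too. At an unadjusted p under 0.05 the counts were 4 of 17 and 6 of 72 with the 3' minus 5' covariate, 2 of 17 and 4 of 72 without replicate 3, and otherwise 0 of 17 and 0 or 1 of 72. Leaving out the replicate block, the variance trend or the dim probe sets cannot move the estimated change of these genes, so no sign could turn there. Over 105 refits of the representative probe sets, those included, the smallest adjusted p was 0.573. The sign turned in 3 of them: EDEM1 had -0.058 as the mean of its probe sets, and, leaving out 1 replicate at a time, ATF4 ran from -0.0952 to 0.008 and ASNS from -0.198 to 0.0208. The count over all probe sets was 45 with the replicate block, and in limma 0 without it (143 at an unadjusted p under 0.05), 11 without the variance trend, 27 after quantile normalization, 27 after cyclic loess and 206 with the 3' minus 5' covariate. Leaving out 1 replicate gave 35 to 328, the highest without replicate 3 and 72 without replicate 2. The cause was not tested.

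Between replicates, 21188 probe sets were called, 10253 with the 3' minus 5' covariate, an alternative added after seeing the data that leaves fewer residual degrees of freedom, and 9045 to 21815 leaving out 1 replicate. Of the 17, 14 were called, 12 with that covariate, and 9 to 13 leaving out 1 replicate. Without replicate 3, 9 of 17 or 52.9% were called against 17.1% of all. List medians moved by less than the spread of their pairs in 80 of 80 refits. These include the refits without the replicate block, the variance trend or the dim probe sets, in which the medians could not move. For the ATF4 partners and stress targets this spread was 0.13 and the median -0.03, so a median of turned sign can count as unmoved. The sign did turn in some refits of the sensors, chaperones, ATF4 partners and amino acid genes. The highest median there was 0.025, for the ATF4 partners without replicate 1. In the other lists no sign turned.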

Other observations

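Some stress genes outside the 10 were highest in replicate 2, in contrast to the 8 representatives highest in replicate 3; the 3 named here were chosen after their values were seen. JDP2, a transcriptional repressor, had means of 7.51 in replicate 3, 8.72 in replicate 2 and 7.90 in replicate 1 (limma adjusted p = 1.0e-04), and CEBPB, a partner of ATF4 and CHOP, had 11.70, 12.28 and 11.81 (adjusted p = 4.0e-04). SLC1A5, a glutamine transporter, had 8.39, 9.28 and 9.04 (adjusted p = 3.8e-04). With T0901317 the values were -0.04 ± 0.11 for JDP2, 0.08 ± 0.07 for CEBPB and 0.10 ± 0.10 for SLC1A5, and none passed.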
